A study of Mus musculus with 16 samples.

Results

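The miR-130 and miR-301 family comprises 4 mouse hairpins, and 6 of their 8 mature strands were taken as members: miR-130a-3p, miR-130b-3p, miR-130b-5p, miR-301a-3p, miR-301b-3p and miR-301b-5p. Members were found by name, after removal of text in parentheses, among the 2510 miRNA names listed in 16 small RNA libraries of C2C12 cells. Names that stand for the same sequence were then joined, which left 2274 names and touched none of the members. The family was selected on the read counts of these same libraries, with results already known, so the values and p-values below describe it and support nothing beyond the description.

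C2C12 is a mouse myoblast line that grows as single cells in rich serum and fuses into myotubes when serum is reduced; the cells here are labelled PAX7 NEG. The control groups are wild-type lines 1 and 2, and the knockout groups (tKO) are lines C1 and C2, called lines 1 and 2 below, which carry a triple knockout of miR-206 and of both miR-1a hairpins, miR-1a-1 with miR-1a-2. Each line was sampled as proliferating cells in growth medium (GM, 20% fetal bovine serum) and after 3 days in differentiation medium (DM3, 2% horse serum), with 2 biological replicates, which gives 4 groups of 4 libraries. The 4 libraries of a group therefore come from only 2 lines, and the p-values measure the spread between these libraries; all groups share the PAX7 NEG background.

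A miRNA hairpin is cut into a short duplex with a 5p and a 3p strand, and as a rule one of them is loaded into an Argonaute protein while the other is degraded. Target messenger RNAs are recognised mainly through the seed, bases 2 to 8 of the loaded strand. In fat cell precursors the miR-130 strands are known for repressing the adipogenic receptor Pparg, and in endothelial cells for repressing the homeobox genes Gax and Hoxa5; this is background and not a result of these data.

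The 4 strands that make these hairpins a family are the 3p strands, shown here because all 4 carry the same seed (capitals, bases 2 to 8), so that only their 3′ parts tell their reads apart.
miR-130a-3p: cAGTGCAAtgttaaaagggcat
miR-130b-3p: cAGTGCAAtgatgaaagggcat
miR-301a-3p: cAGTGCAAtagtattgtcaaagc
miR-301b-3p: cAGTGCAAtggtattgtcaaagc
Counted from 1 at the 5′ end, miR-130b-3p differs from miR-130a-3p by T11A and A13G, and miR-301b-3p differs from miR-301a-3p by A10G alone. The 5p strands fall into different seed groups, with CTCTGAC shared by both miR-301 strands and CTCTTTT and CTCTTTC in the miR-130 strands.
miR-130a-5p: gCTCTTTTcacattgtgctact
miR-130b-5p: aCTCTTTCcctgttgcactact
miR-301a-5p: gCTCTGACtttattgcactact
miR-301b-5p: gCTCTGACtaggttgcactact
The sequences are those of the deposited tables; 7 of the 8 have an equal RefSeq entry (GRCm38.p6), the exception being miR-301b-3p.

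Mir130b and Mir301b form a cluster. In the mm10 (GRCm38) GENCODE annotation Mir130b lies at chr16:17124061-17124142 and Mir301b at chr16:17124400-17124496, both on the minus strand, 257 bases apart in an intron of 2610318N02Rik. Mir301, the hairpin of the miR-301a strands, lies at chr11:87113004-87113089 on the plus strand in an intron of Ska2, which encodes a spindle and kinetochore protein. Mir130a lies at chr2:84741115-84741178 on the minus strand and overlaps no other annotated gene. The hairpins of the chromosome 16 cluster are printed because 2 read patterns described further on are placed on them. Capitals mark the 5p and 3p strands and the lower-case stretch between them is the loop.
Mir130b: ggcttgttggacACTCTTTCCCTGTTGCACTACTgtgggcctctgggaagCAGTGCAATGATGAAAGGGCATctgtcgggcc
Mir301b: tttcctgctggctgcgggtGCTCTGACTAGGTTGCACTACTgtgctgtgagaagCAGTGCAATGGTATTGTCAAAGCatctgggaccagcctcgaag

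Libraries held 112792 to 6543570 reads, and 3 reads, the lower limit of what can be told from 0, corresponded to 0.458 to 26.6 CPM, the unit in which reads are scaled to a common library total. In each group and line the library of replicate 2 was deeper than that of replicate 1. Exact matches to a miRNA hairpin made up 82.5% to 90.8% of the reads of GM libraries, with control at 89.1% or more. In DM3 they made up 68.1% to 85.1% of control reads and 47.3% to 89.3% of tKO reads. The lowest value belongs to tKO DM3 line 1 replicate 1, which also had the fewest reads and 18.9% of reads shorter than 18 nt. That library stands apart, and values without it are given where it moves a call or a share. The labels were checked against miR-206-3p, the deleted muscle miRNA, which had 837 to 1466 CPM (GM) and 19950 to 57442 CPM (DM3) in the control lines. The knockout lines had 0.808 to 15.5 CPM and 0.960 to 70.9 CPM of it. All 6 muscle names of a fixed list had reads; of 11 names that mark blood, epithelium, endothelium, neurons or hepatocytes, 10 had reads, their sum was 14.9 to 141.9 CPM per library, and the neuronal miR-124-3p had 0 reads.

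Levels are given as CPM scaled by the trimmed mean of M-values (TMM-scaled CPM), as mean ± SD over the 4 libraries of a group. In proliferating control cells the most read member was miR-130b-5p (537 ± 209.8), followed by miR-130a-3p (109 ± 25.5), miR-130b-3p (34.1 ± 4.38), miR-301b-5p (21.1 ± 6.26), miR-301b-3p (5.84 ± 0.796) and miR-301a-3p (5.35 ± 2.51). The control GM ranges of the first 4 did not overlap each other or those of the last pair, while miR-301b-3p and miR-301a-3p overlapped. The order in tKO GM differed only in its last pair, with 574 ± 159, 94.1 ± 30.6, 31.6 ± 3.25, 29.3 ± 8.79, 7.87 ± 3.79 for miR-301b-3p and 9.48 ± 4.87 for miR-301a-3p, and there miR-130b-3p and miR-301b-5p overlapped too. The plot of levels by library shows all 16 values of each member.

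**Figure D1:**
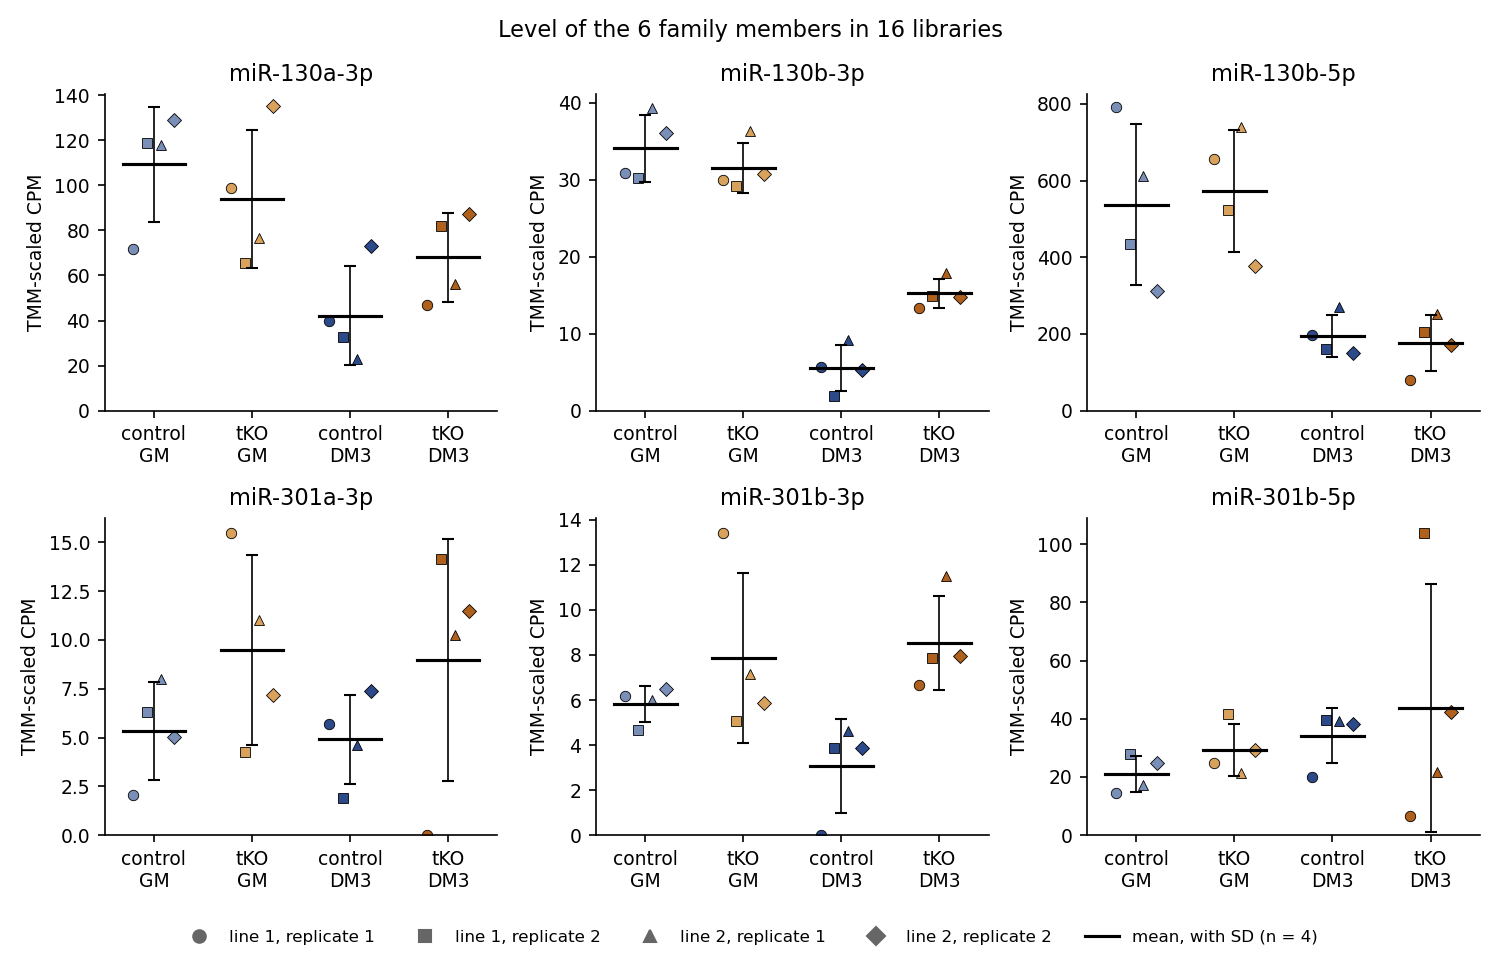
TMM-scaled CPM (linear axis from 0) of each member in each library, by group; symbols give line and replicate, bars the mean and SD of 4 libraries, drawn no lower than 0. The 4 control DM3 libraries of miR-130b-3p sit between 1.92 and 9.23, below the 4 tKO DM3 libraries (13.4 to 17.9) and below all GM libraries (29.2 to 39.3).

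Differentiation was compared first, since the question there is which members change when control myoblasts are moved to differentiation medium. In control, 3 of the 6 members fell by edgeR's quasi-likelihood test (adjusted p under 0.05): both strands of Mir130b and miR-130a-3p; none rose. Across all 807 names tested, 27.6% were called in this comparison, 11.8% in the downward direction, and nothing is read from the members' count. Other quantities moved along in control: the names of other cell types summed to 42.9 to 69.6 CPM in GM and 16.1 to 29.4 CPM in DM3, reads under 18 nt went from 1.88% to 2.95% up to 4.76% to 12.8%, and the muscle names from 904 to 1523 CPM up to 23112 to 59672 CPM. None of these ranges overlapped, and their part in the result was not tested. Among the names of other cell types, miR-122-5p (3.90 to 27.6 CPM in GM, 0 to 3.24 CPM in DM3) was lower in DM3 without overlap. The same held for miR-200b-3p (2.45 to 5.12 and 0 to 2.01 CPM) and miR-200c-3p (4.97 to 9.34 and 0 to 3.34 CPM). The other names of that list with reads overlapped, and miR-142a-3p, miR-223-3p and miR-200a-3p had the higher mean in DM3. The median log2 fold change of the members was -1.04, and that of all names 0.02.

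miR-130b-3p, a carrier of the family seed from the chromosome 16 cluster, fell the most. Its TMM-scaled CPM in control GM were 30.8 and 30.2 in line 1 (replicates 1 and 2) and 39.3 and 36.1 in line 2. In control DM3 they were 5.69 and 1.92 in line 1 and 9.23 and 5.28 in line 2. The highest DM3 library lay below the lowest GM library in both lines. The log2 fold change was -2.74 (SE 0.41), with an edgeR adjusted p of 9.8e-05. The DM3 values rest on 23 reads in the 4 libraries, 2 to 15 each, against 416 reads in GM. Of those 416 reads, 61 began at the loop of Mir130b and are not the strand itself, against 0 of the 23 in DM3. The fall counted without such reads is given further on.

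The other strand of the same hairpin, miR-130b-5p, was the most read member in each group and fell as well. In control GM it had 791 and 433 in line 1 and 613 and 311 in line 2, and in control DM3 196 and 162 in line 1 and 270.0 and 149 in line 2. On the TMM scale the groups did not overlap, although replicate 1 lay above replicate 2 in each line. By unscaled CPM of reads without a mismatch they overlapped, with 229 to 683 in GM and 128 to 262 in DM3. On the log2 scale the change was -1.47 (SE 0.39), and the edgeR adjusted p 0.0081.

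miR-130a-3p, from the separate hairpin on chromosome 2, had 71.9 and 119 in control GM line 1 and 118 and 129 in line 2. In control DM3 it had 39.8 and 32.7 in line 1 and 23.1 and 73.3 in line 2. The groups overlapped by a single DM3 library, line 2 replicate 2, which lay just above the lowest GM library. The log2 fold change was -1.35 (SE 0.41), with an edgeR adjusted p of 0.018 that rose to 0.058 without control GM line 2 replicate 1, 0.070 without control DM3 line 2 replicate 1 and 0.069 without control DM3 line 1 replicate 2.

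The 3 members with the miR-301 number did not pass in control. miR-301b-3p, the cluster partner of miR-130b-3p, had 4.69 to 6.51 in control GM and 0, 3.85, 4.62 and 3.87 in control DM3, with the 0 in line 1 replicate 1. Those groups did not overlap, yet they rest on 70 and 17 reads, and the log2 fold change of -0.73 (SE 0.51) had an edgeR adjusted p of 0.32. Without mismatched reads the miR-301b-3p groups overlapped, with 1.58 to 3.90 CPM in GM and 0 to 2.51 CPM in DM3. miR-301a-3p had 2.06 to 8.00 in control GM and 1.92 to 7.40 in control DM3, on 71 and 27 reads, a log2 change of -0.16 (SE 0.58) whose edgeR adjusted p was 0.87. As listed and on the TMM scale, 3 members had groups that did not overlap, each lower in DM3, beside 32.6% of all names without overlap and 15.7% in that direction.

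In tKO cells 2 of the 6 members fell on differentiation and none rose, beside 19.7% of all names called and 8.3% called lower. Here the summed names of other cell types (39.6 to 141.9 CPM in GM, 14.9 to 62.7 CPM in DM3) and the reads under 18 nt (2.00% to 6.49% and 2.96% to 18.9%) overlapped between media. Within that list miR-122-5p (17.8 to 75.5 CPM in GM, 0 to 8.96 CPM in DM3) and miR-150-5p (2.78 to 12.8 and 0 to 2.56 CPM) were lower in DM3 without overlap. The other names of the list with reads overlapped. The summed muscle names did not overlap, with 45.2 to 74.9 CPM in GM and 155.5 to 1082 CPM in DM3, and the part of any of these in the result was not tested. miR-130b-5p had 655 and 524 in tKO GM line 1 and 741 and 376 in line 2. In tKO DM3 it had 80.2 and 204 in line 1 and 251 and 171 in line 2. The groups did not overlap, and the lowest value is that of the library that stands apart. The fall was -1.68 on the log2 scale (SE 0.39) with an edgeR adjusted p of 0.0054, and leaving out any 1 library kept the adjusted p between 0.0077 and 0.031.

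miR-130b-3p had 29.9 and 29.2 in tKO GM line 1 and 36.4 and 30.7 in line 2, and 13.4 and 14.9 in tKO DM3 line 1 and 17.9 and 14.8 in line 2. The groups did not overlap. The DM3 values rest on 2 and 55 reads in line 1 and 14 and 63 in line 2, so the first rests on fewer than 3 reads. The log2 fold change was -1.03 (SE 0.36) with an edgeR adjusted p of 0.048, a call at the edge of the threshold: with any 1 of the 16 libraries left out, whichever it was, the adjusted p lay between 0.053 and 0.157, and the log2 fold change between -1.12 and -0.93. In tKO, groups did not overlap for 19% of all names, and for 9.54% with DM3 lower.

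The remaining members were not called in tKO. miR-130a-3p had 99.0 and 65.7 in tKO GM line 1 and 76.6 and 135 in line 2, against 46.8 and 82.1 in tKO DM3 line 1 and 56.3 and 87.5 in line 2. The ranges overlapped, and the log2 fold change of -0.43 (SE 0.40) had an edgeR adjusted p of 0.49. miR-301a-3p had 4.24 to 15.5 in tKO GM and 0, 14.1, 10.2 and 11.5 in tKO DM3, the 0 again in line 1 replicate 1. For miR-301b-3p the values were 5.08 to 13.4 in tKO GM and 6.68 to 11.5 in tKO DM3. Log2 fold changes were 0.26 (SE 0.51) and 0.20 (SE 0.45), and the edgeR adjusted p-values 0.78 and 0.81.

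The scaling matters in both differentiation comparisons. The median of all names moved from 0.02 to 0.39 in control and from 0.01 to 0.24 in tKO when total counts replaced TMM. Relative to those medians, the log2 fold changes in control were -2.76 and -2.78 for miR-130b-3p, -1.49 and -1.47 for miR-130b-5p and -1.37 and -1.38 for miR-130a-3p under TMM and total counts. By total counts alone miR-130b-3p remained called in control (adjusted p 0.00048), while the adjusted p was 0.051 for miR-130b-5p and 0.058 for miR-130a-3p. In tKO, 1 of the 6 members was called by total counts, beside 19% of all names. In bulk RNA, fewer cells that make a miRNA and less miRNA per cell cannot be told apart.

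**Figure D2:**
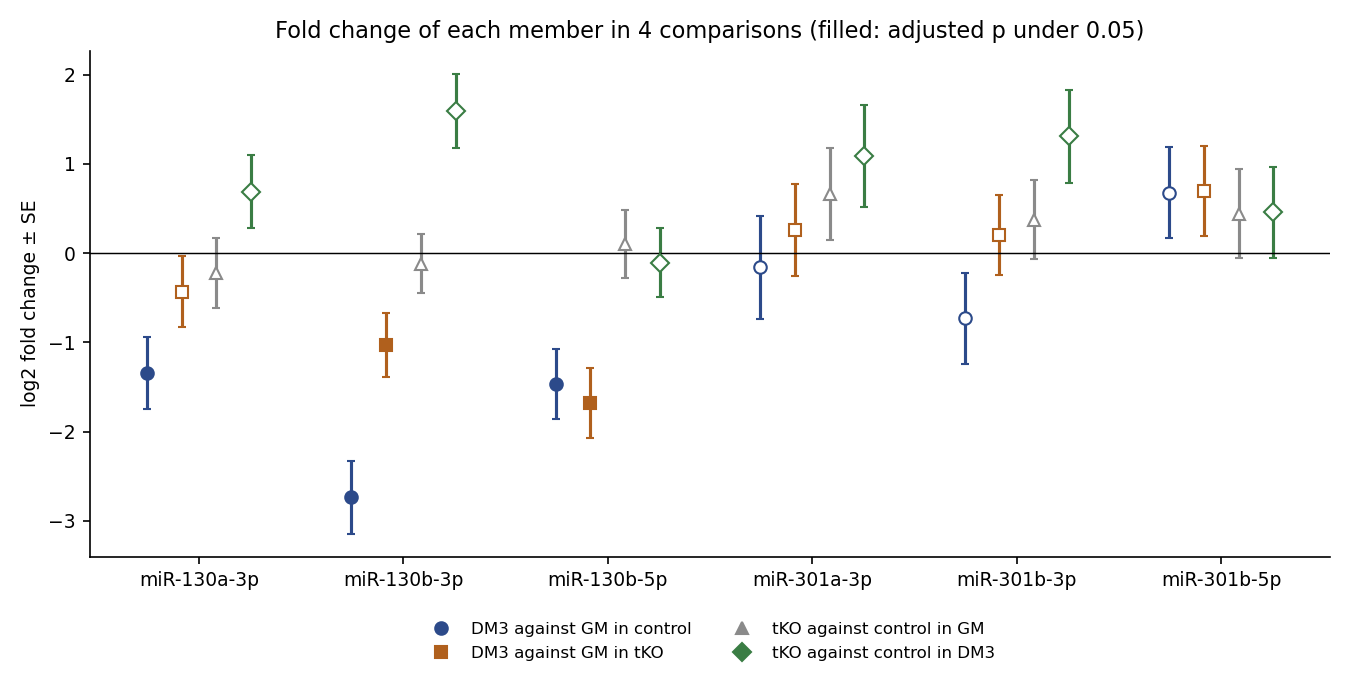
Log2 fold change of each member with its SE (edgeR, vertical axis) in 4 comparisons; filled symbols have an adjusted p under 0.05. The filled points are miR-130a-3p, miR-130b-3p and miR-130b-5p for control differentiation and both miR-130b strands for tKO differentiation; all points for tKO against control are open.

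The genotype comparison asks whether loss of miR-206 and the miR-1a hairpins goes with other levels of the family. In GM, 0 of the 6 members passed by edgeR, 0 had an unadjusted p under 0.05 and 0 passed by DESeq2. Of all 807 names, 1.12% were called by edgeR, 65 had an unadjusted p under 0.05 and 20 (2.49%) passed by DESeq2. The groups of each member overlapped, where 8.92% of all names did not overlap. The log2 fold changes of tKO against control ran from -0.22 (SE 0.39) for miR-130a-3p to 0.66 (SE 0.52) for miR-301a-3p.

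In DM3, 0 of the 6 members passed by edgeR, 2 had an unadjusted p under 0.05 and 1 passed by DESeq2. Of all 807 names, 0.867% were called by edgeR, 90 had an unadjusted p under 0.05 and 19 (2.36%) passed by DESeq2. The 2 are the 3p strands of the chromosome 16 cluster, miR-130b-3p and miR-301b-3p, and as listed both had tKO libraries that lay above all control libraries; 4.71% of all names had groups that did not overlap, 2.11% with tKO higher. miR-130b-3p stood at 1.92 to 9.23 TMM-scaled CPM in control and 13.4 to 17.9 in tKO libraries, a log2 difference of 1.59 (SE 0.42) with an edgeR adjusted p of 0.078. The lowest of these tKO values and both control line 1 values rest on 2 reads each, below the limit of 3 reads. Without tKO DM3 line 1 replicate 1, the library that stands apart, the difference was 1.70 and the adjusted p 0.034, while the names called rose from 7 to 53 (6.16%). Over all alternatives the adjusted p ran from 0.0074 to 0.65. miR-301b-3p stood at 0 to 4.62 in control and 6.68 to 11.5 in tKO libraries, a log2 difference of 1.31 (SE 0.52; edgeR adjusted p 0.36). The lowest tKO value is 1 read, in line 1 replicate 1, and that read carries a mismatch. Without mismatched reads the tKO libraries had 0 to 6.79 CPM and the control libraries 0 to 2.51 CPM, which overlap.

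The other members had log2 differences of 1.08 (SE 0.57) for miR-301a-3p, 0.69 (SE 0.41) for miR-130a-3p, 0.46 (SE 0.51) for miR-301b-5p and -0.11 (SE 0.39) for miR-130b-5p in DM3. Their control and tKO libraries overlapped. The members' median log2 difference in DM3 was 0.89 and that of all names 0.09. Of the 6 muscle names, miR-206-3p and miR-1a-3p are the deleted ones. miR-133a-3p had 1130 to 2190 CPM in control and 65.8 to 762 CPM in knockout DM3 libraries, and miR-133b-3p 347 to 738 and 24.7 to 199.9 CPM, without overlap; as background, their hairpins are known to be transcribed together with the deleted ones. The ranges of the other 2 names overlapped, miR-486a-5p with 69.5 to 94.99 and 47.0 to 92.3 CPM and miR-499-5p with 0 to 8.07 and 0 to 16.3 CPM, the latter with the higher mean in tKO. The list summed to 23112 to 59672 CPM and 155.5 to 1082 CPM, mostly miR-206-3p in control. Names of other cell types summed to 16.1 to 29.4 CPM in control and 14.9 to 62.7 CPM in knockout DM3 libraries. The part of either in the difference of the 3p strands was not tested.

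Whether differentiation acted differently in tKO was tested as an interaction. By edgeR, 0 of the 6 members passed, 1 had an unadjusted p under 0.05 and 0 passed by DESeq2. Of all 807 names, 0% were called by edgeR, 37 had an unadjusted p under 0.05 and 0 passed by DESeq2. The 1 member is miR-130b-3p, whose fall was smaller in tKO by 1.71 on the log2 scale (SE 0.53), with an unadjusted edgeR p of 0.0047 and an adjusted p of 0.902. The estimates were 0.91 (SE 0.56) for miR-130a-3p, 0.94 (SE 0.68) for miR-301b-3p, 0.42 (SE 0.77) for miR-301a-3p, -0.21 (SE 0.54) for miR-130b-5p and 0.02 (SE 0.72) for miR-301b-5p. The interaction uses the same libraries as the comparisons above.

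Arm use set Mir130a apart from the other hairpins. Over the 16 libraries, the 5p name took 10.5% of the reads of Mir130a (420 5p and 3565 3p reads), 93.4% of Mir130b (12580 5p and 890 3p reads), 95.2% of Mir301 (5651 and 287) and 85.8% of Mir301b (1367 and 227). Of those 1367 reads, 913 were a mismatched 13-nt sequence described further on, and 70 of the 227 matched Mir301. Without mismatched reads the pooled 5p share of Mir301b was 77.8% in control GM and 78.3% in tKO GM. In DM3 it was 74.1% (control) and 62.3% (tKO). Of 193 hairpins with at least 200 reads, 48.2% had more than 50% of their reads on the 5p arm and 33.7% more than 80%. In 3 of the 4 hairpins, then, the strand that carries the shared seed was the less read one. The non-member miR-301a-5p stood at 166 ± 50.5 TMM-scaled CPM in control GM, 188 ± 110.5 in tKO GM, 90.1 ± 39.1 in control DM3 and 126 ± 63.2 in tKO DM3, and the non-member miR-130a-5p at 15.8 ± 6.93, 10.2 ± 3.46, 2.61 ± 3.32 and 6.55 ± 5.01. Of these, miR-130a-5p fell in control (log2 fold change -2.64, SE 0.70; edgeR adjusted p 0.0076), on 238 reads in GM and 13 in DM3.

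**Figure D3:**
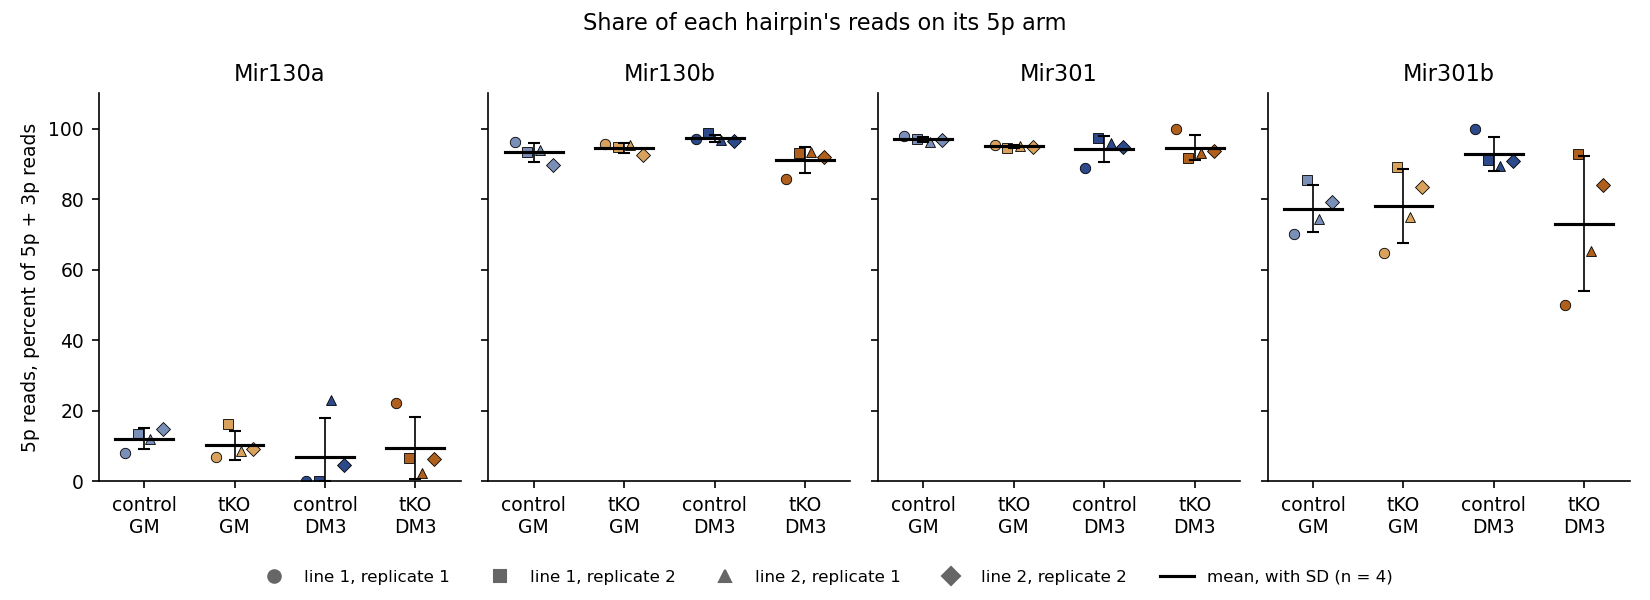
Percent of each hairpin's reads listed under its 5p name, per library and group, with mean and SD of 4 libraries, the SD bar drawn no lower than 0. Mir130a stays at 23.1% or less and the Mir130b libraries at 85.7% or more in all 16; Mir301b has its lowest share, 50.0%, on 2 reads.

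In control the 5p share of Mir130b was 89.6% to 96.2% (GM) and 96.6% to 98.8% (DM3), and in tKO 92.5% to 95.6% (GM) and 85.7% to 93.3% (DM3). The media differed in opposite directions, with means of 93.3% (GM) and 97.3% (DM3) in control and 94.5% and 91.1% in tKO. Averaged over both genotypes, DM3 minus GM was 0.27 percentage points (exact two-sided permutation test within genotype, p 0.857, 16 libraries), and tKO minus control -2.53 percentage points (exact permutation within medium, p 0.129). For Mir301b the differences were 5.29 (p 0.411) and -9.45 percentage points (p 0.172) by the same exact permutation tests, and the first turned to -6.95 when reads with a mismatch were left out. Without tKO DM3 line 1 replicate 1 the differences were 1.48 and -1.51 for Mir130b and 9.997 and -5.80 for Mir301b. The sign of the 0.27 rests on single libraries: it was -0.16, -0.39, -0.090 and -0.074 without each control DM3 library in turn (line 1 replicates 1 and 2, then line 2) and -0.35 without control GM line 2 replicate 2. Together with the tails below, 12 share tests were run, and the lowest Benjamini-Hochberg adjusted p was 0.687. The GM and DM3 ranges of Mir130b in control, and the control and tKO ranges in DM3, did not overlap as listed, patterns noticed after the values were seen and not tested. No matching share over all hairpins is given, so nothing is read from these patterns. Without mismatched reads the control ranges of the 2 media overlapped (GM up to 96.7%, DM3 from 96.2%).

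Reads that carried 1 or 2 bases at the 3′ end that the hairpin does not encode, here called tailed, differed by name. A tail of 1 base was found on 35.3% of miR-130a-3p reads, 35.3% of miR-130b-3p, 54.7% of miR-301a-3p, 15.9% of miR-301b-3p and 20.8% of miR-130b-5p. Of the 227 reads under miR-301b-3p, 97 carried a mismatch and 70 of those matched the Mir301 hairpin exactly. The share under that name is therefore not that of a single strand. On the miR-301a-3p reads the added base was T in 75.2%, and on the miR-130b-5p reads it was C in 38.0% and A in 32.5%. Counting 1-base and longer tails, miR-130a-3p was tailed in 42.3% of 1488 control GM reads and 41.4% of 266 control DM3 reads, and in 37.6% of 1085 and 38.7% of 726 tKO reads. For miR-130b-3p the shares were 42.8% and 39.1% in control, the latter on 23 reads, and 43.8% and 41.0% in tKO. Over 483 names with at least 200 reads the median tailed share was 31.2% (quartiles 20.8% and 55.2%). None of the 8 tail comparisons passed; the widest difference was that of miR-301a-3p, -22.0 percentage points in tKO against control (exact permutation p 0.111, 15 libraries). In the 6 libraries with 20 or more reads it was -1.45 (exact permutation p 1.0). The difference of miR-130a-3p between media, -2.76 percentage points, turned to 0.57 without tKO DM3 line 1 replicate 1. Without it the difference between genotypes went from -4.76 to -1.57 for miR-130a-3p and from -5.64 to -3.10 for miR-301b-3p, and that between media from -5.58 to -2.68 for miR-301b-3p. With mismatched reads left out, the differences between media were -5.56 (miR-130a-3p), 3.92 (miR-130b-3p), -14.2 (miR-301a-3p) and -11.0 points (miR-301b-3p), with exact permutation p from 0.149 to 0.780. A mismatched 13-nt sequence under miR-130a-3p, described further on, was tailed in all 120 copies.

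The annotated 5′ end, which sets the seed, was the start of 98.3% of placed reads for miR-130a-3p, 99.6% for miR-301a-3p and 96.2% for miR-130b-5p. For miR-130b-3p it was the start of 85.8%, and most of the rest began at the loop, as described further on. The 3′ ends varied more. miR-130a-3p was read as 21 nt (30.2% of placed reads), 22 nt (28.9%) and 20 nt (24.7%). The commonest form of miR-301a-3p was 25 nt, 2 bases longer than the annotated strand.
miR-301a-3p, commonest form: cagtgcaatagtattgtcaaagcat
That form made up 50.0% of its placed reads and the annotated 23-nt strand 26.4%. For miR-301b-3p, by contrast, the annotated strand made up 64.1% and the 25-nt form 1.56%. The annotated strand and the form 1 base shorter made up 49.0% and 36.3% of miR-130b-5p.

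A block of reads under miR-130b-3p was not that strand. Of its 890 reads, 107 began at the loop of Mir130b, 103 on its first base and 4 on the base before it, and 95 were the 16-nt stretch between the arms.
Mir130b loop: gtgggcctctgggaag
The stretch runs from base 35 to base 50 of the hairpin, directly after the 5p strand and directly before the 3p strand. Such reads made up 14.7% of the reads under the name in control GM and 13.2% in tKO GM, with 2 to 33 per library, against 0 of 23 reads in control DM3 and 2.99% in tKO DM3. Per library the loop reads had 2.00 to 9.70 CPM in GM and 0 to 0.660 CPM in DM3, and this difference was not tested. With only reads that begin near a strand's 5′ end and match the hairpin (an alternative chosen after seeing the data), the fall of miR-130b-3p was -2.11 (SE 0.38; edgeR adjusted p 0.00034) in control and -0.69 (SE 0.32; adjusted p 0.109) in tKO. The difference between tKO and control in DM3 was then 1.55 (SE 0.40; adjusted p 0.029). miR-130a-3p had 36 such reads among 3565, most of which began just before the loop. Of these, 21 began on the last base of the 5p strand and 2 on the base before it. A further 10 began on the first base of the loop and 3 on the next. The mismatched 13-nt reads placed in the loop of Mir130a, given below, are not among the 36. The miR-301 3p names had 0.

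miR-301b-5p was the member whose listed level depended most on which reads were counted. As listed it had 14.4 to 27.7 TMM-scaled CPM in control GM and 19.9, 39.4, 39.2 and 38.0 in control DM3, where the low value is line 1 replicate 1. In tKO it had 21.4 to 41.5 in GM and 6.68, 104, 21.8 and 42.2 in DM3. In control 3 of the 4 DM3 libraries lay above the highest GM library, while in tKO the DM3 values lay on both sides of the GM values. The log2 fold changes of 0.68 (SE 0.51) in control and 0.70 (SE 0.50) in tKO had edgeR adjusted p-values of 0.35 and 0.36. Of its 1367 reads 72.9% were marked as carrying a mismatch, where the median of 483 names was 10.7%, and 913 (66.8%) were a single 13-nt sequence.
13-nt sequence under miR-301b-5p: cgtgctctgacta
Placed on the Mir301b hairpin it fits bases 17 to 29 with 1 difference, G1C, counted from its 5′ end with the hairpin's base first. Every copy had a 2-base tail, CT in 732. Whether these short reads come from that hairpin or from another RNA was not tested. In control its level was 0 to 13.8 CPM (GM) and 20.2 to 37.8 CPM (DM3), and in tKO 0 to 22.97 CPM (GM) and 0 to 107 CPM (DM3).

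Without the reads that carry a mismatch, the direction of miR-301b-5p turned. Its level was then 9.63 ± 2.10 CPM of all reads in control GM, 5.54 ± 1.84 in control DM3, 15.2 ± 5.09 in tKO GM and 8.00 ± 6.31 in tKO DM3 (SD, n = 4). The log2 fold changes were -1.07 in control and -0.77 in tKO, and the edgeR adjusted p-values 0.087 and 0.16, so neither direction passed. A similar 13-nt sequence, aacctgtaccgag, made up 120 of the 3565 reads of miR-130a-3p (3.37%). It fits the loop of Mir130a with 1 difference (G4C), and its origin was not tested either. It did not turn the direction of miR-130a-3p.

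**Figure D4:**
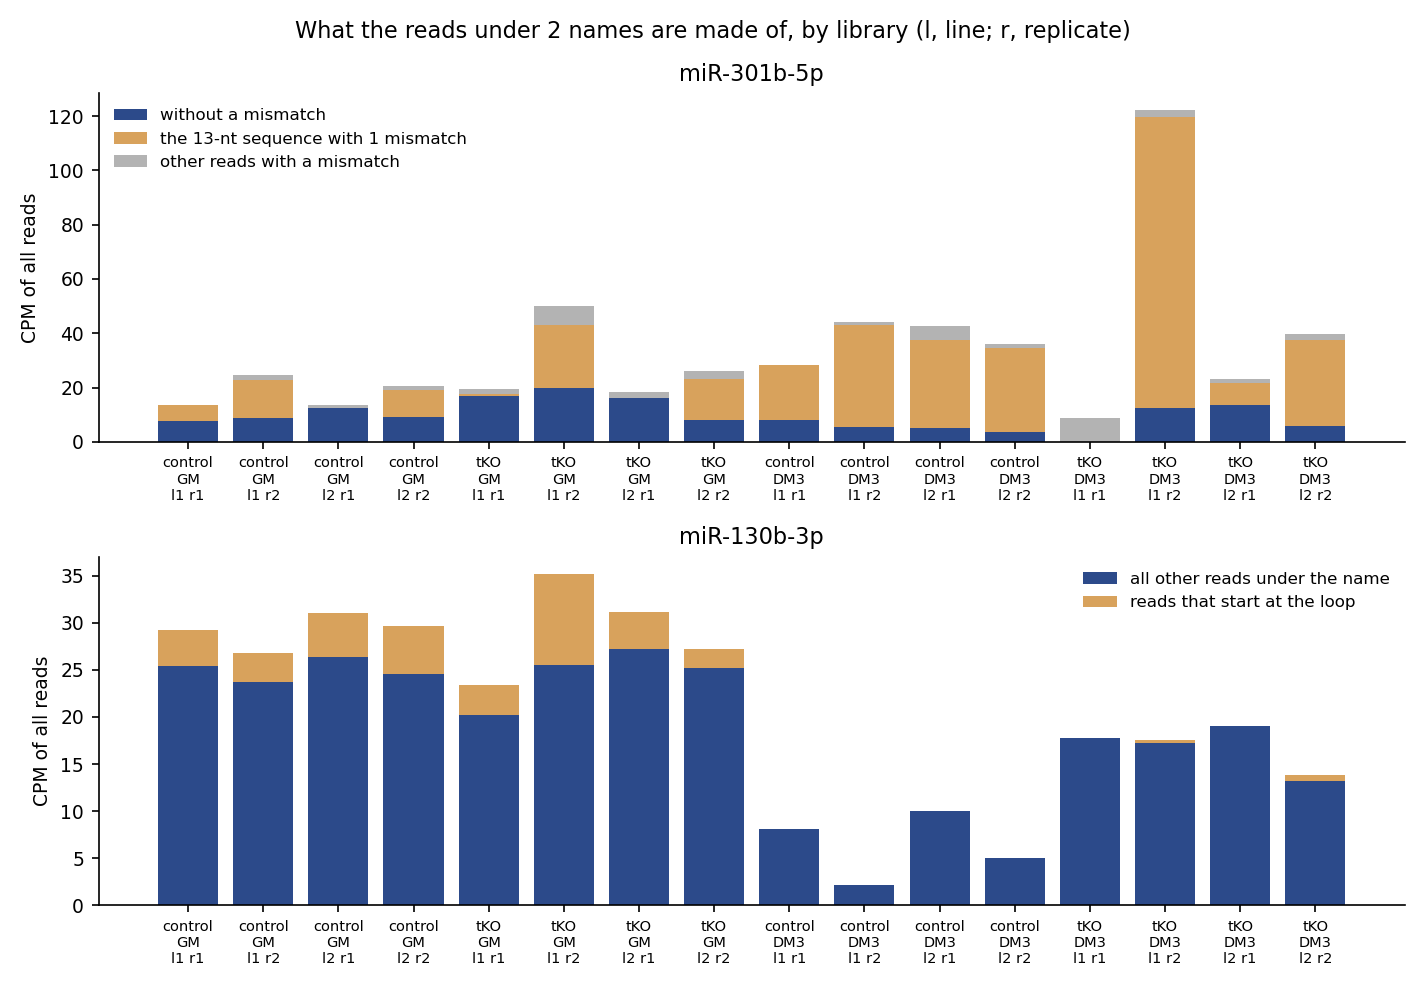
CPM of all reads under miR-301b-5p (top) and miR-130b-3p (bottom) in each library, stacked by kind of read. The 13-nt sequence fills most of the miR-301b-5p bar in all 4 control DM3 libraries and reaches 107 CPM in tKO DM3 line 1 replicate 2, and the loop reads of miR-130b-3p appear in all 8 GM libraries and in 0 of the control DM3 libraries.

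The single-base difference between the miR-301 3p strands also showed in the naming. Of the 227 reads under miR-301b-3p, 97 carried a mismatch, and 70 of those matched the Mir301 hairpin exactly, so part of the reads under this name fit miR-301a-3p. Only 1 read under miR-301a-3p matched Mir301b in that way. The values of the miR-301b-3p name are therefore not those of one sequence.

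Among each other, the members' log2 levels over the 16 libraries had a Pearson r of 0.73 for miR-130a-3p with miR-130b-3p and 0.72 for the strands of Mir130b, but 0.24 for miR-301a-3p with miR-301b-3p and 0.50 for miR-130b-3p with its cluster partner miR-301b-3p. The values share libraries and depth and are a description. The names most like the summed 3p strands, among 240 names that averaged at least 100 TMM-scaled CPM, were miR-16-5p (r 0.93), let-7e-5p (0.93) and miR-28a-3p (0.90).

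The summed 3p strands had 105.4 to 145 CPM (GM) and 45.2 to 85.2 CPM (DM3) in control libraries, and 112 to 158 CPM and 88.7 to 140.1 CPM in tKO libraries. On the TMM scale the sums were 111 to 177 and 40.4 to 89.8 in control, and 104.2 to 179 and 66.8 to 121.7 in tKO. The control and tKO DM3 libraries thus overlapped on that scale, though not by unscaled CPM, and control DM3 lay below both GM groups on both. miR-130a-3p supplied on average 70.2%, 64.9%, 74.0% and 67.4% of them, and miR-130b-3p 22.5%, 22.98%, 10.99% and 15.8% (control GM, tKO GM, control DM3, tKO DM3). Other mouse miRNAs with the same seed in RefSeq are miR-130c, miR-721, miR-6341 and miR-6389; of the reads listed under their names, 0 began with the first 16 bases of the mature strand. As further background, the miR-148 and miR-152 strands hold the first 6 seed bases shifted by 1 position, from base 3. Their levels in control GM were 3114 ± 482 TMM-scaled CPM for miR-148b-3p, 1732 ± 389.97 for miR-152-3p and 23.6 ± 5.12 for miR-148a-3p, and none of the 3 passed in any of the 5 edgeR comparisons (lowest adjusted p 0.405).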

How the data were processed

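Small RNA of 16 libraries was measured from 0.5 µg total RNA, with inserts of 15 to 50 nt selected, per the labels. The authors deposited 1 table per library with expected counts: reads per listed sequence under a miRNA name, with columns for 3′ non-templated bases and a mark for mismatches, per the file headers. The submitters' processing notes name cutadapt 1.15, STAR 2.5.4 and mm10 without a role. Some counts are fractions, but 0 of the 1610 sequence entries of members held one. Counts were summed by name and rounded. Names were kept by filterByExpr (smallest count 10), scaled by TMM and tested with edgeR 4.0.16 in R 4.3.3 (robust quasi-likelihood, 1 coefficient per group, all 16 libraries, Benjamini-Hochberg over 807 names); the SE is the absolute log2 fold change divided by the root of F. DESeq2 1.42.0 was an alternative. Shares were compared by exact permutation, at most 4900 assignments. The fit and the permutation routine were checked on simulated data. Correlations used log2(TMM-scaled CPM + 1). Coordinates are from GENCODE M21.

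Members, lists and tests were chosen with earlier results of these data known. The text gives all 6 members, the other 2 strands, related seeds and the 3 most alike names. Intervals and limits of detection cover counting error only, since reads carry no molecular identifiers. Other settings covered scaling, filtering, mismatches, read length, blocks for replicate and line, and each library left out.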

Additional observations from a re-analysis of the deposited data

Results flagged for a closer look

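In 54 groups of 4 libraries, 32 of levels and 22 of shares, 5 held a library far from the other 3; chance gives about 1 in 20. In control DM3, line 1 replicate 1 was lowest for miR-301b-3p (0 TMM-scaled CPM, 0 reads) and for miR-301b-5p (19.9), and its 5p share of Mir301b was highest (100%, on 7 reads). In tKO DM3, line 1 replicate 1 was lowest for the 5p share of Mir130b (85.7%, on 14 reads) and for the tailed share of miR-130a-3p (14.3%, on 7 reads). These are the 2 shallowest libraries, with 247964 and 112792 reads; the part of depth was not tested.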

How the results depend on the processing

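Of the members' log2 fold changes, 329 of 376 under other settings and 442 of 480 with 1 library left out kept direction and side of the threshold; 27 and 18 turned, 16 and 19 no longer passed, and 4 and 1 newly passed. With 1 library left out, members called ranged from 2 to 3 (control differentiation), 1 to 1 (tKO differentiation) and 0 to 1 (tKO against control in DM3), and stayed at 0 in GM and for the interaction. Of all names these refits called 18.4% to 30.6%, 12.2% to 18.2% and 0.564% to 6.16%. In GM they called 0.574% to 1.9% of all names, and for the interaction 0% to 0.116%. For tKO against control in DM3 the count was 1 with DESeq2, without mismatched reads, at 18 to 25 nt and with hairpin match, a setting chosen after seeing the data; of all names these settings called 2.36%, 2.69%, 3.04% and 4.25%. For control differentiation it was 1 with replicate 1 alone, replicate 2 alone or total counts (15.1%, 15.9% and 26.6% of all names called) and 2 with replicates summed (18.5%). For tKO differentiation it was 1 with names as listed, no filter, replicate 1 alone, replicates summed, 18 to 25 nt, total counts or hairpin match (19.9%, 5.45%, 22.2%, 10.1%, 22.9%, 19% and 27% of all names), and 0 with replicate 2 alone (6.32%). The cause of these changes was not tested.

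Directions turned as follows, none past the threshold in the original fit. Total counts: miR-130b-3p in GM 0.0034, miR-301a-3p in control differentiation 0.17, miR-301b-5p interaction -0.15. At 18 to 25 nt: these were 0.091, 0.26 and -0.030, and miR-301b-5p differentiation -0.87 (control) and -0.90 (tKO). Hairpin match: miR-130b-3p in GM 0.13, miR-301a-3p 0.17, miR-301b-5p differentiation -0.87 and -0.85, 5p share differences between media -0.84 (Mir130b) and -6.57 (Mir301b). Without mismatches: miR-301a-3p 0.24, miR-301b-5p -1.07 and -0.77, Mir301b share -6.95. Replicate 1 alone: miR-301b-5p -0.76 (DM3 genotype), -0.48 (tKO differentiation) and -1.28 (interaction), miR-301a-5p interaction -0.51. Replicate 2 alone: miR-130b-5p 0.13 (DM3 genotype) and 0.0033 (interaction), miR-301a-3p -0.072 and miR-301b-3p -0.14 in GM, miR-301a-5p -0.89 (GM) and 0.69 (tKO differentiation). Replicates summed: miR-130b-5p in DM3 0.047, miR-301a-5p -0.35 (GM) and 0.073 (tKO differentiation). No filter: miR-130b-5p in DM3 0.050. Libraries with at least 20 reads: tailed shares, tKO minus control, 0.12 (miR-130a-3p) and 1.51 (miR-130b-3p), and DM3 minus GM -1.71 (miR-130b-3p).

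With 1 library left out, log2 fold changes ranged from -0.21 to 0.039 for miR-130b-3p in GM; for miR-130b-5p from -0.10 to 0.32 in GM, -0.33 to 0.18 in DM3 and -0.43 to 0.077 in the interaction; for miR-301a-3p from -0.78 to 0.091 in control differentiation; for miR-301b-5p from -0.37 to 0.77 in DM3, -0.10 to 0.98 in tKO differentiation and -0.79 to 0.35 in the interaction; and for miR-301a-5p from -0.24 to 0.44 in GM. Share differences (DM3 minus GM, then tKO minus control) ranged from -0.39 to 1.48 and -3.34 to -1.51 points for the 5p share of Mir130b and 2.85 to 9.997 and -11.9 to -5.80 for Mir301b. For tailed shares they ranged from -4.53 to 0.57 and -6.04 to -1.57 (miR-130a-3p), -4.92 to 5.79 and -8.51 to 2.21 (miR-130b-3p), -17.6 to -3.02 and -28.3 to -15.4 (miR-301a-3p) and -11.0 to -2.68 and -9.54 to -1.21 (miR-301b-3p).

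With a replicate block the members called were 0 (GM), 0 (DM3), 3 (control differentiation), 2 (tKO differentiation) and 0 (interaction). Of all names that fit called 1.24%, 0.867%, 29.9%, 20.8% and 0%. The miR-301b-5p interaction turned to -0.20 (line block -0.026, both blocks -0.19). The labels tie the numbers to no batch; same-numbered libraries of different groups had a mean correlation of deviations of 0.10 (48 pairs), differently numbered ones -0.095.

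All names called ranged over the settings from 2 to 20 in GM, 1 to 74 in DM3, 85 to 274 in control differentiation, 74 to 210 in tKO differentiation and 0 to 1 for the interaction. Depth limits the low members: 3 reads are 26.6 CPM in the shallowest library, above each level of both miR-301 3p strands.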
